A study of Homo sapiens with 8 samples.

Results

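The 3 retinoblastoma pocket protein genes (RB1, RBL1 and RBL2), 4 genes of the MuvB core (LIN9, LIN37, LIN52 and LIN54) and 2 genes of the MYB family (MYBL1 and MYBL2) were followed in B-cell lymphoma cells treated with the histone deacetylase (HDAC) inhibitor chidamide. These 9 genes were taken by name, by a rule that uses no measured value, but with earlier results of these data known. Of the 9, 7 could be placed in the deposited table among 18143 placed gene labels (63967 labels in all), and these 7 passed the filter on low values. LIN37 and LIN52 were not analysed here, because their labels lie outside the rows in which values could be matched to labels. The cells were Raji, a rituximab-sensitive Burkitt lymphoma line, and Raji-4RH, a rituximab-resistant line derived from Raji. Each line received DMSO, the vehicle, or 3 μM chidamide for 24 h, which gives 4 groups of 2 RNA-seq libraries: Raji DMSO, Raji chidamide, Raji-4RH DMSO and Raji-4RH chidamide. Cells were collected by flow sorting through a gate that the sources do not describe. The comparison of lines rests on 1 parental line and 1 resistant line. Nothing in the labels says whether the 2 libraries of a group came from separate cultures, so the p-values measure the spread between these libraries, which may be technical.

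RB1, RBL1 (p107) and RBL2 (p130) encode proteins with a shared pocket through which they bind E2F transcription factors and recruit corepressors, including histone deacetylases. RB1 binds mainly the activator E2Fs, whereas p107 and p130 join the repressor E2Fs and the MuvB core (LIN9, LIN37, LIN52, LIN54 and RBBP4) to form the DREAM complex, which holds cell cycle genes down in quiescent cells. Cyclin-dependent kinases release the pocket proteins. The MuvB core then binds B-MYB (MYBL2) and later FOXM1 and switches on G2/M genes. LIN54 is the subunit that binds the cell cycle homology region (CHR) in DNA, and A-MYB (MYBL1) is a relative of B-MYB that is prominent in germinal centre B cells and in the testis.

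In GENCODE v29 (GRCh38) RB1 lies at chr13:48303726-48599436 on the plus strand, RBL1 at chr20:36996349-37095995 on the minus strand, RBL2 at chr16:53433977-53491649 on the plus strand, LIN9 at chr1:226231149-226309869 on the minus strand, LIN54 at chr4:82909973-83012926 on the minus strand, and MYBL2 at chr20:43667019-43716496 on the plus strand. Of the 9 genes, 8 matched an entry of the RefSeq promoter table (GRCh38.p14), which holds 250 bases before and 50 bases after each gene's start. The entry of RB1 lies at a start inside the gene, so the promoter of its full-length transcript was not searched. The E2F letters searched on both strands were TTCCCGC (held by 6.553% of the 35116 promoters of the table), TTGGCGC (held by 3.041%), TTCGCGC (held by 2.244%) and TTGCCGC (held by 2.386%). Any of them occurs in 3 of the 8 promoters, those of RBL1, LIN9 and LIN52, and in 12.97% of all promoters. The CHR letters, TTTGAA (held by 15.16%) or TTCGAA (held by 1.447%), occur in 2 of the 8, those of LIN54 and RBL2, and in 16.35% of all promoters. The stretches of 30 bases that hold these letters in RBL1, LIN9 and LIN54 are shown with the letters in capitals, together with a stretch of MYBL2, which changed most with chidamide among the 7 genes. MYBL2 holds none of the letters searched. Its capitals mark TTGGCGG, which was picked after the sequence had been seen, overlaps no letters of the search, and occurs in 2 of the 8 promoters (MYBL2 and LIN54) and in 3.43% of all.
RBL1, chr20:37095998-37096027, minus strand, bases -30 to -1 from the RefSeq start: agattTTCGCGCgctTTGGCGCaggtggtt
LIN9, chr1:226309504-226309533, minus strand, bases -30 to -1: cactcggaacaaacagcctgcagTTCCCGC
LIN54, chr4:83010904-83010933, minus strand, bases -110 to -81: cccttgtgcgTTTGAAggttggcggggcgg
MYBL2, chr20:43667059-43667088, plus strand, bases -55 to -26: cggcgccgacgcgcTTGGCGGgagatagaa
The RBL1 stretch lies in an exon of the antisense gene AL136172.1 on the opposite strand. The LIN9 and MYBL2 stretches lie in exons of those genes in GENCODE v29, and the LIN54 stretch lies in a LIN54 intron. GENCODE v29 starts LIN9, LIN54 and MYBL2 further upstream, and for LIN9 and LIN54 that start lies outside the bases searched. A match of letters is a description and not a bound site.

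Libraries held 13991697 to 21193441 reads by the totals recovered from the deposited values, and each library correlated best with the other library of its group (r of log2 values 0.9923 in the Raji-4RH chidamide group and 0.9978 to 0.9985 in the other groups). The 7 B cell markers reported, CD79A and MS4A1 among them, were all above 1 FPKM (fragments per kilobase of gene length, scaled to the library total) in every library, with a summed level of 1295 to 2217 FPKM. The summed level of the 5 epithelial markers was at most 0.551 FPKM. The 5 T cell markers summed to 0.0712 to 1.055 FPKM in the other groups and to 3.98 and 4.95 FPKM in the Raji-4RH chidamide libraries, mostly from CD3E, with CD3D listed at 0 in all DMSO libraries. The 5 myeloid markers summed to 0.917 to 1.04 FPKM with DMSO and to 9.71 to 10.9 FPKM with chidamide, where MPO stayed at or under 0.185 FPKM. The 5 fibroblast markers summed to 0.0446 to 0.199 FPKM with DMSO and to 0.786 to 2.47 FPKM with chidamide. The part of these markers in the results was not tested.

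Chidamide raised RB1 in both lines and lowered RBL1 in both, and it raised RBL2 in Raji-4RH. RB1, the founding tumour suppressor of the family, stood at 7.83 and 7.98 FPKM in the Raji DMSO libraries and at 13.5 and 12.85 with chidamide. In Raji-4RH it stood at 5.78 and 5.52 FPKM with DMSO and at 12.25 and 13.8 with chidamide. The chidamide libraries of both lines were above all DMSO libraries, and the 4 treated libraries of the lines overlapped each other. The mean rose 1.66-fold in Raji and 2.31-fold in Raji-4RH. Fold changes were tested on the log2(FPKM + 1) scale, which understates the change of low genes. On that scale RB1 rose by 0.67 ± 0.066 (SE, n = 2 per group) in Raji (limma, adjusted p = 5.98e-05) and by 1.07 ± 0.066 in Raji-4RH (limma, adjusted p = 1.61e-06). Each library is a bulk measurement over many cells, in which fewer cells in a phase of the cycle and less RNA per cell cannot be told apart.

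RBL1, whose product p107 is known to be most abundant in cycling cells, moved the other way. It was at 6.20 and 6.19 FPKM in Raji with DMSO and at 4.34 and 4.18 with chidamide. In Raji-4RH the libraries held 8.34 and 7.996 FPKM with DMSO and 3.71 and 4.14 with chidamide. Every chidamide library was below every DMSO library, and Raji-4RH, the higher line with DMSO, was the lower with chidamide by a narrow margin (4.18 against 4.14 FPKM for the nearest libraries). RBL1 fell by 0.45 on the log2 scale in Raji (limma, adjusted p = 0.000349) and by 0.90 in Raji-4RH (limma, adjusted p = 3.1e-06), to 68.8% and 48.1% of the DMSO mean.

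RBL2, whose product p130 is the main pocket protein of DREAM in resting cells, was at 7.81 and 8.10 FPKM in Raji with DMSO and at 8.82 and 9.26 with chidamide. In Raji-4RH it was at 4.11 and 4.83 FPKM with DMSO and at 7.02 and 6.15 with chidamide. Raji-4RH was below Raji in every library, with or without the drug. The increase in Raji-4RH was 0.47 ± 0.082 on the log2 scale (SE, n = 2 per group; limma, adjusted p = 0.000814). The difference in Raji, 0.16 with a 95% interval of -0.02 to 0.35, did not pass the threshold (limma, adjusted p = 0.117), and it passed when only the 4 Raji libraries were fitted (limma, adjusted p = 0.0425). Exons of RBL2 share 610 bases with AKTIP on the opposite strand (mean 1.95 FPKM over the 8 libraries). They also share 721 bases with AC007342.6 on the opposite strand, which has no placed value. The sources used here do not say whether counting used strand, so reads in these stretches cannot be told apart.

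**Figure D1:**
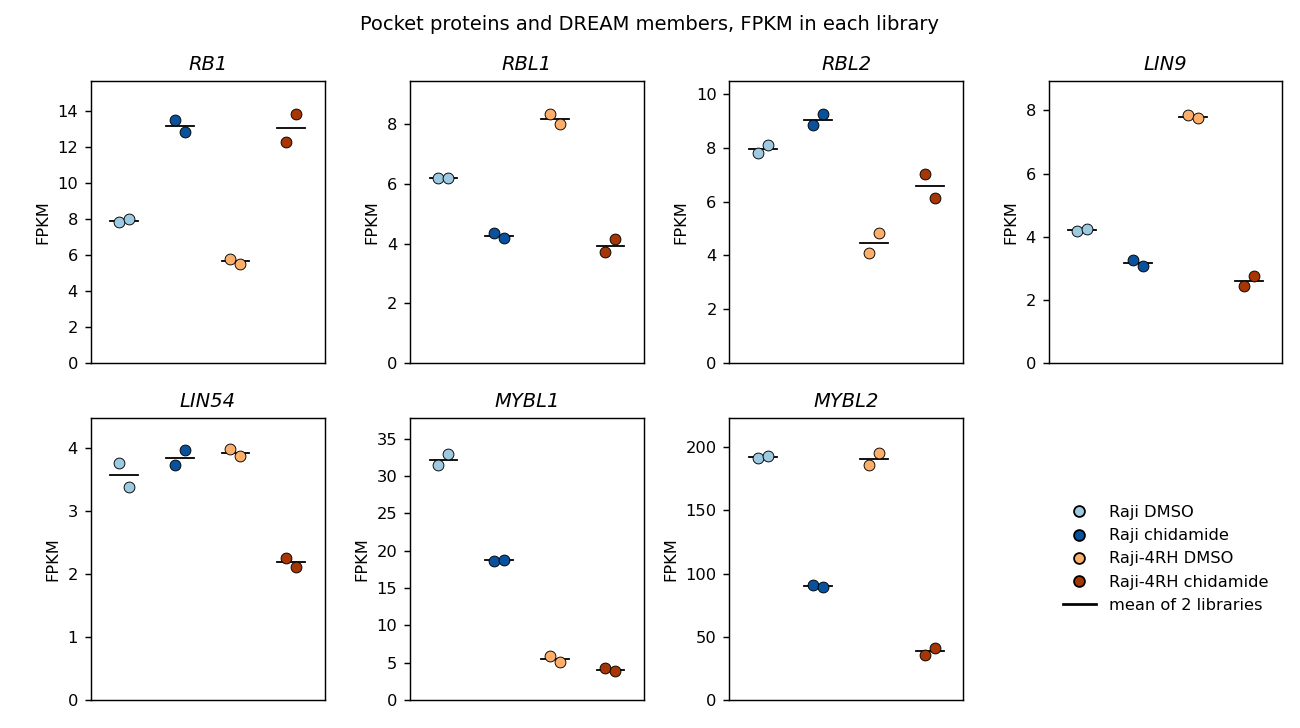
FPKM (vertical axes, from 0) of the 7 measured genes in each of the 8 libraries, with 2 points and their mean for each group. RB1 is higher and MYBL2 lower in every chidamide library than in every DMSO library, LIN54 is low only in the Raji-4RH chidamide libraries, and MYBL1 is low in all Raji-4RH libraries.

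The make-up of the pocket protein mRNA therefore differed between groups. RBL1 contributed 45.7% and 43.6% of the summed FPKM of the 3 genes in the Raji-4RH DMSO libraries and 28.4% and 27.8% in the Raji DMSO libraries. With chidamide its share was 16.3% and 15.9% in Raji and 16.1% and 17.2% in Raji-4RH, so the lines that differed with DMSO overlapped with the drug. The share of RB1 rose from 35.9% and 35.8% to 50.6% and 48.9% in Raji and from 31.7% and 30.1% to 53.3% and 57.3% in Raji-4RH, as a description with no test. The ratio of RBL2 to RBL1 was below 1 only in the Raji-4RH DMSO libraries (0.493 and 0.604), and was 1.26 and 1.31 in Raji with DMSO, 2.03 and 2.22 in Raji with chidamide, and 1.89 and 1.49 in Raji-4RH with chidamide. The summed level of the 3 genes was 21.8 and 22.3 FPKM in Raji DMSO, 26.6 and 26.3 in treated Raji, 18.2 and 18.3 in Raji-4RH DMSO, and 23.0 and 24.1 in Raji-4RH chidamide.

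**Figure D2:**
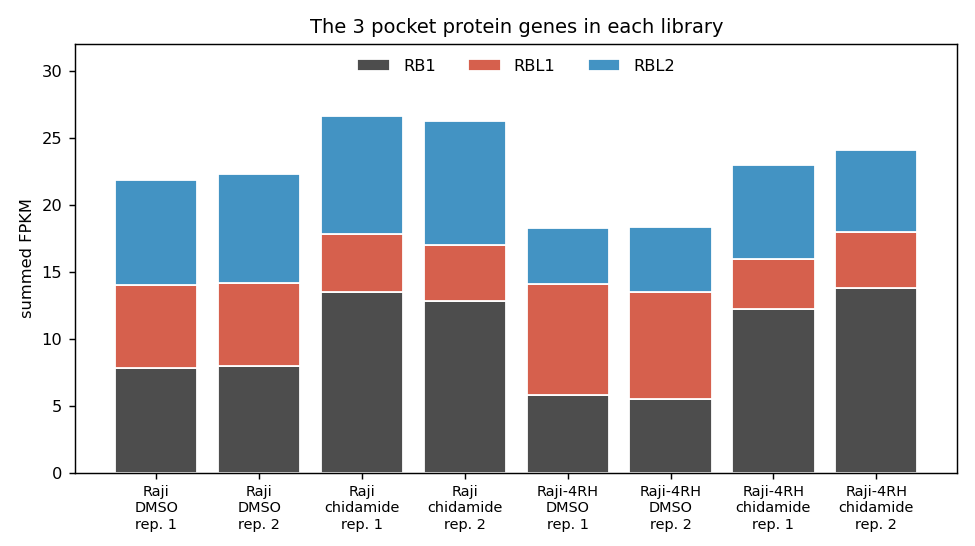
Stacked FPKM of RB1, RBL1 and RBL2 (vertical axis, from 0) in each of the 8 libraries. The RBL1 segment is widest in the Raji-4RH DMSO libraries, with 45.7% and 43.6% of the sum, and takes 15.9% to 17.2% in the 4 chidamide libraries.

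Of the MuvB core, LIN9 fell in both lines and LIN54 fell in Raji-4RH. LIN9, a core subunit whose loss disturbs mitotic gene expression, was at 4.17 and 4.26 FPKM in Raji with DMSO and at 3.26 and 3.08 with chidamide. In Raji-4RH it was at 7.85 and 7.77 FPKM with DMSO and at 2.46 and 2.75 with chidamide. The Raji-4RH DMSO libraries were the highest of the 8 and the Raji-4RH chidamide libraries the lowest. LIN9 fell by 0.32 on the log2 scale in Raji (limma, adjusted p = 0.00207) and by 1.29 in Raji-4RH (limma, adjusted p = 4.16e-07), to 75.2% and 33.4% of the DMSO mean. The lowest read count of any of the 7 genes in any library was 153 reads, for LIN9 in the first Raji-4RH chidamide library.

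LIN54, the DNA-binding subunit, was at 3.76 and 3.38 FPKM in Raji with DMSO and at 3.73 and 3.97 with chidamide. In Raji-4RH it was at 3.98 and 3.87 FPKM with DMSO and at 2.25 and 2.12 with chidamide. The Raji groups overlapped, and the Raji-4RH chidamide libraries lay below the other 6. In Raji-4RH it fell by 0.63 ± 0.065 on the log2 scale (SE, n = 2 per group; limma, adjusted p = 3.25e-05), and by 1.07 with quantile normalization of the libraries. The difference in Raji was 0.09 with a 95% interval of -0.06 to 0.23 (limma, adjusted p = 0.286).

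MYBL2, which encodes the B-MYB partner of the MuvB core, was the most abundant of the 7 genes in every group and fell the most. Its libraries held 191.5 and 193.0 FPKM in Raji with DMSO, 90.7 and 89.8 in Raji with chidamide, 185.6 and 195.1 in Raji-4RH with DMSO, and 35.75 and 41.5 in Raji-4RH with chidamide. The DMSO libraries of the lines overlapped, whereas the chidamide libraries of the lines did not. MYBL2 fell by 1.08 ± 0.072 on the log2 scale in Raji (SE, n = 2 per group; limma, adjusted p = 6.56e-06) and by 2.28 ± 0.072 in Raji-4RH (limma, adjusted p = 6.65e-08). Among the 10710 genes tested, this was the 56th most negative change in Raji and the 18th in Raji-4RH. In Raji-4RH 20.3% of the DMSO mean was left, and in Raji 46.9%.

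MYBL1, which encodes A-MYB (chr8:66562175-66614247, minus strand), differed mainly between the lines. Raji held 31.4 and 32.9 FPKM with DMSO and 18.7 and 18.75 with chidamide. Raji-4RH held 5.84 and 5.14 FPKM with DMSO and 4.25 and 3.91 with chidamide. All Raji-4RH libraries were below all Raji libraries, whatever the treatment. Chidamide lowered MYBL1 by 0.75 on the log2 scale in Raji (limma, adjusted p = 3.44e-05) and by 0.35 in Raji-4RH (limma, adjusted p = 0.0014), and by 0.60 in Raji-4RH with quantile normalization. The ratio of MYBL2 to MYBL1 was 6.09 and 5.86 in Raji DMSO, 4.86 and 4.79 in treated Raji, 31.8 and 37.9 in Raji-4RH DMSO, and 8.42 and 10.6 in Raji-4RH chidamide.

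Most genes changed in these comparisons, so the counts of members stand against a high background. In Raji-4RH, chidamide changed 7 of the 7 measured members (2 higher, 5 lower), against 74.9% of the 10710 genes tested (4642 genes or 43.3% higher, 3380 or 31.6% lower, limma with Benjamini-Hochberg adjusted p under 0.05). With quantile normalization the genes called were 3718 higher and 4057 lower, and the median change over all genes moved from 0.09 to -0.02. In Raji, 5 of the 7 changed (1 higher, 4 lower), against 60.0% of genes (3370 or 31.5% higher, 3051 or 28.5% lower). The libraries of the compared groups did not overlap for 86.5% of genes in Raji-4RH and 82.8% in Raji. The members' median change was -0.63 in Raji-4RH and -0.32 in Raji on the log2 scale, and the median of all genes tested was 0.09 and 0.02. With quantile normalization the members' median in Raji-4RH was -1.07. An exact permutation test of 2 libraries against 2 cannot go below p = 0.333, so single values were tested only within the fit over all genes.

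The effect of chidamide differed between the lines for 6 of the 7 members, as tested by the interaction term, against 48.8% of all genes (2 of 7 positive, 27.2% of genes, and 4 of 7 negative, 21.7%). The fall was larger in Raji-4RH by 1.19 on the log2 scale for MYBL2 (limma, adjusted p = 5.49e-05), by 0.97 for LIN9 (limma, adjusted p = 7.38e-05) and by 0.45 for RBL1 (limma, adjusted p = 0.00377). For LIN54, which fell in Raji-4RH and was not called in Raji, the difference was -0.72 (limma, adjusted p = 0.000424). RB1 rose by 0.41 more in Raji-4RH (limma, adjusted p = 0.00805). For MYBL1 the Raji-4RH effect was 0.40 higher, that is, a smaller fall (limma, adjusted p = 0.00954), but with quantile normalization the difference was 0.04 (limma, adjusted p = 0.778). RBL2 missed the threshold with a difference of 0.31 (limma, adjusted p = 0.0573). It passed with voom on the recovered reads (0.36; limma, adjusted p = 0.0311). It also passed without the second Raji-4RH chidamide library (0.39) and without the second Raji-4RH DMSO library (0.40). In the other settings RBL2 missed the threshold, and leaving out 1 library each gave 0.2128 to 0.403.

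**Figure D3:**
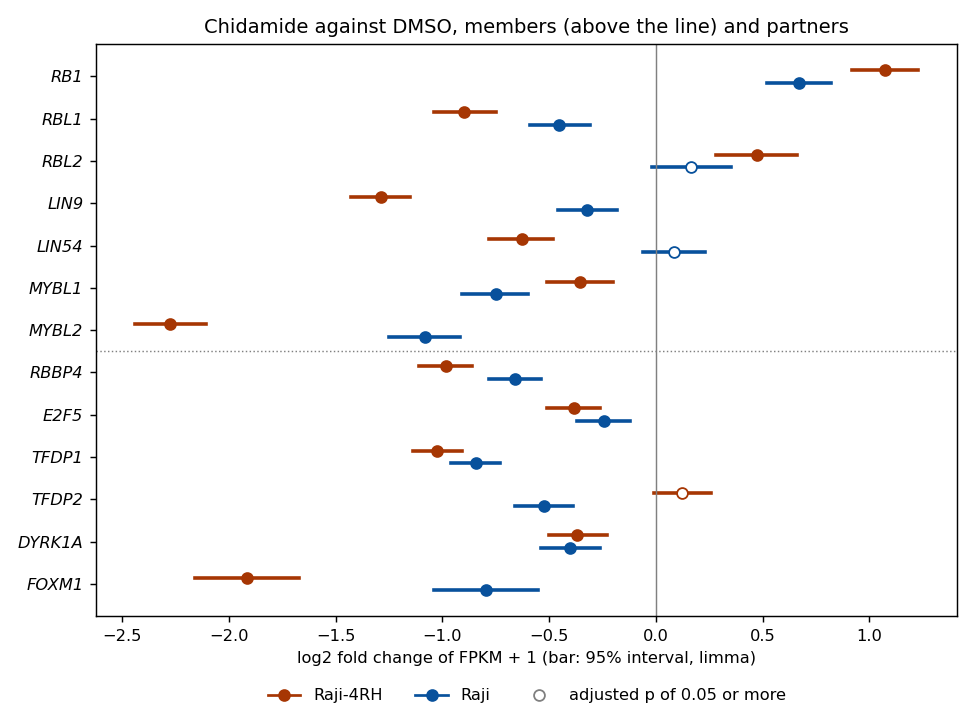
Log2 fold change of FPKM + 1 with chidamide against DMSO (horizontal axis) with 95% intervals from limma, for the 7 members and 6 partners in each line; open points did not pass adjusted p under 0.05. The MYBL2, LIN9 and FOXM1 points of Raji-4RH lie well to the left of those of Raji, RB1 lies to the right of 0 in both lines, and TFDP2 is below 0 in Raji alone.

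The untreated lines were compared to find where the resistant line starts. With DMSO, 5 of the 7 members differed (2 higher and 3 lower in Raji-4RH), against 73.6% of all genes (41.2% higher, 32.4% lower), and the libraries of the lines did not overlap for 88.5% of genes. MYBL1 was 5.86-fold lower in Raji-4RH (-2.35 on the log2 scale; limma, adjusted p = 1.7e-08), the 96th most negative difference of the 10710 genes. RBL2 was lower by 0.71 (limma, adjusted p = 6.94e-05) and RB1 by 0.42 (limma, adjusted p = 0.000482). LIN9 was higher by 0.76 (limma, adjusted p = 7.94e-06) and RBL1 by 0.35 (limma, adjusted p = 0.000974). MYBL2 differed by -0.01 with a 95% interval of -0.18 to 0.15, and LIN54 by 0.11, with no call for either (limma, adjusted p = 0.867 and 0.158).

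With chidamide the order changed, and 5 of the 7 members were lower in Raji-4RH and none was higher, against 35.0% of all genes lower, 44.3% higher and 79.3% in either direction, with no overlap of libraries for 88.5% of genes. MYBL1 stayed lower by 1.96 on the log2 scale (limma, adjusted p = 3.93e-08). MYBL2, level with Raji in DMSO, was lower by 1.21 (limma, adjusted p = 8.86e-07). LIN54 was lower by 0.61 (limma, adjusted p = 3.4e-05) and RBL2 by 0.41 (limma, adjusted p = 0.00175), and the LIN54 difference was 1.01 with quantile normalization. LIN9, higher in Raji-4RH with DMSO, was lower by 0.21 (limma, adjusted p = 0.0123). That LIN9 call was lost without the first Raji chidamide library (limma, adjusted p = 0.0835) and without the first Raji-4RH chidamide library (limma, adjusted p = 0.0662), and the difference was 0.57 with quantile normalization. RB1 differed by -0.02 (95% interval -0.17 to 0.14) and RBL1 by -0.10 (-0.24 to 0.05), without a call for either gene. The RBL1 difference was called with quantile normalization (-0.34) and with median-centred libraries (-0.18). The treated and untreated comparisons use the same lines, and each chidamide effect shares its DMSO libraries with the comparison of untreated lines.

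**Figure D4:**
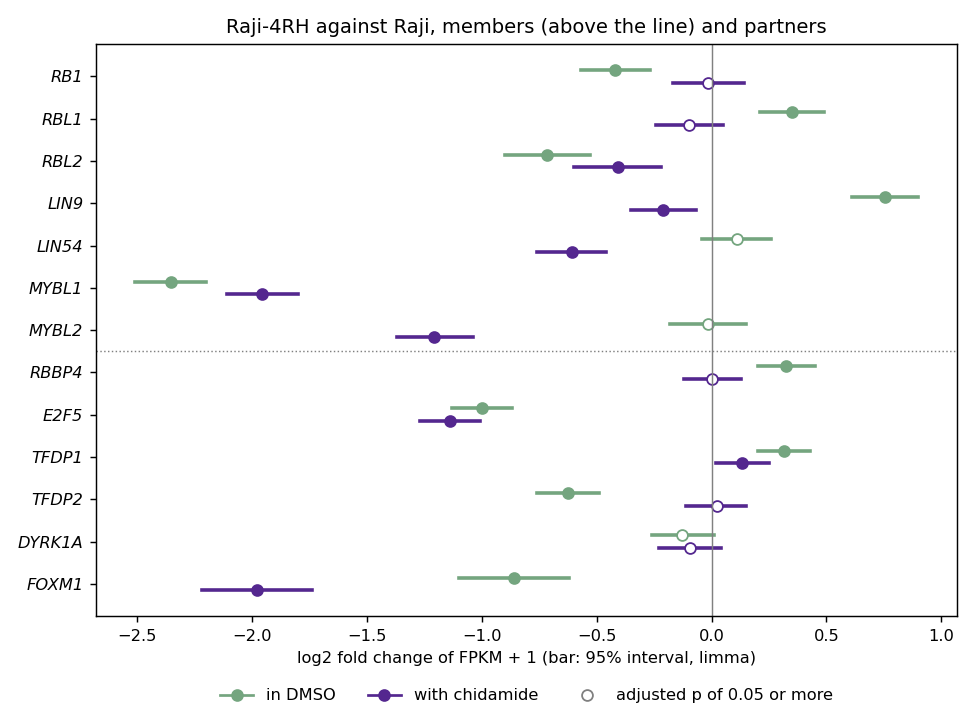
Log2 difference of FPKM + 1 between Raji-4RH and Raji (horizontal axis) with 95% intervals from limma, in DMSO and with chidamide, for the 7 members and 6 partners; open points did not pass adjusted p under 0.05. MYBL1, E2F5 and FOXM1 lie far to the left in both conditions, and MYBL2 moves from -0.01 in DMSO to -1.21 with chidamide.

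The partners listed with the complex were the MuvB subunit RBBP4, the repressor E2Fs E2F4 and E2F5, the E2F dimer subunits TFDP1 and TFDP2, the kinase DYRK1A, which assembles DREAM by marking LIN52, and FOXM1. E2F4 was not analysed here for the same reason as LIN37. Of the other 6, 5 fell in Raji-4RH and none rose (31.6% of all genes fell), and all 6 fell in Raji (28.5% of all genes fell). The listed medians were -0.68 and -0.59 on the log2 scale. RBBP4, a histone-binding protein of several complexes, was at 25.7 and 27.7 FPKM in Raji with DMSO, 16.6 and 16.4 in Raji with chidamide, 33.9 and 33.6 in Raji-4RH DMSO, and 16.35 and 16.8 in Raji-4RH chidamide. FOXM1 was at 36.6 and 37.5 FPKM in Raji DMSO, 20.9 and 20.95 in treated Raji, 19.9 and 20.0 in Raji-4RH DMSO, and 3.87 and 5.34 in Raji-4RH chidamide. The FOXM1 libraries of the lines did not overlap in either condition, and its fall was larger in Raji-4RH by 1.12 (limma, adjusted p = 0.000523). Exons of FOXM1 share 781 bases with ITFG2 on the opposite strand, which had a mean of 7.94 FPKM.

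TFDP1 fell by 0.84 in Raji and 1.02 in Raji-4RH, and the difference between the lines was not called (-0.18, 95% interval before adjustment -0.34 to -0.02, limma adjusted p = 0.0602). It was called with median-centred libraries (-0.22; limma, adjusted p = 0.0361), with no filter on low values (limma, adjusted p = 0.0405) and without the first or the second Raji-4RH chidamide library (limma, adjusted p = 0.0365 and 0.0205), and it was 0.041 with quantile normalization. TFDP2 fell in Raji and was not called in Raji-4RH. It was at 12.4 and 13.3 FPKM in Raji DMSO and 8.53 and 8.74 in treated Raji, but at 7.89 and 8.07 in Raji-4RH DMSO and 8.999 and 8.58 in Raji-4RH chidamide. The fall in Raji was 0.52, the change in Raji-4RH was 0.12 (limma, adjusted p = 0.0786), and the interaction was 0.65 (limma, adjusted p = 0.000368). E2F5 fell by 0.24 in Raji and 0.38 in Raji-4RH and was lower in Raji-4RH than in Raji by 1.00 with DMSO. Its exons share 969 bases with C8orf59 on the opposite strand (mean 20.4 FPKM), whose reads cannot be told apart there. DYRK1A fell by 0.40 and 0.37. The length given for DYRK1A in the table, 10213 bases, is below the joined exons of GENCODE v29, 26602 bases, so its FPKM depends on the annotation used.

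The kinases, cyclins and inhibitors that set whether pocket proteins are phosphorylated moved in both directions. Of 13 tested of 15 listed, 6 rose and 7 fell in Raji-4RH, and 4 rose and 5 fell in Raji, with medians of -0.21 and -0.01. Of all genes, 43.3% rose and 31.6% fell in Raji-4RH, and 31.5% rose and 28.5% fell in Raji. With quantile normalization 4 of the 13 rose and 6 fell in each line, with medians of -0.10 and -0.13. The inhibitor CDKN1A (p21) was at 10.7 and 10.1 FPKM in Raji DMSO, 51.6 and 51.4 in treated Raji, 28.8 and 32.6 in Raji-4RH DMSO, and 161.1 and 169 in Raji-4RH chidamide. It rose by 2.20 in Raji and 2.39 in Raji-4RH, and CDKN1B (p27) rose by 1.25 and 1.41, with no call for a difference between the lines in either gene (limma, adjusted p = 0.133 and 0.23). The other inhibitors tested did not all rise. CDKN2B and CDKN2D rose in both lines, whereas CDKN2C fell by 0.47 in Raji and 0.21 in Raji-4RH. CDKN2A fell by 0.57 in Raji-4RH (limma, adjusted p = 0.000126) and was not called in Raji. CDK2 fell by 0.65 and 1.32, and CDK4 by 0.50 and 0.94. The cyclin E genes differed between the lines: CCNE1 changed by -0.01 in Raji (limma, adjusted p = 0.898) and fell by 1.45 in Raji-4RH, and CCNE2 changed by 0.04 (limma, adjusted p = 0.699) and fell by 1.19, with interactions of -1.43 (limma, adjusted p = 2.7e-05) and -1.22 (limma, adjusted p = 5.16e-05). CDK6 fell by 0.35 in Raji and rose by 0.19 in Raji-4RH.

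The activator E2Fs fell in both lines, 3 of 3 in each. E2F1 was at 61.1 and 57.1 FPKM in Raji DMSO, 32.4 and 31.3 in treated Raji, 87.0 and 92.3 in Raji-4RH DMSO, and 20.4 and 19.85 in Raji-4RH chidamide. Its libraries were highest in untreated Raji-4RH and lowest in treated Raji-4RH, the order also seen for LIN9. E2F1 fell by 0.87 and 2.10, E2F2 by 0.98 and 2.70, and E2F3 by 0.24 and 0.86, in Raji and Raji-4RH. Of the corepressors of pocket proteins, 10 of 11 listed were tested. In Raji-4RH 4 rose and 4 fell, but 1 rose and 4 fell with median-centred libraries. In Raji 3 rose and 1 fell. Of all genes, 43.3% rose and 31.6% fell in Raji-4RH, and 31.5% rose and 28.5% fell in Raji. The histone methyltransferase SUV39H1 fell by 1.06 in Raji and fell by 1.84 in Raji-4RH, and HDAC1, a target of the drug, rose by 0.48 in Raji and fell by 0.19 in Raji-4RH, with an interaction of -0.67 (limma, adjusted p = 0.000286).

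Genes known as targets of E2F and DREAM were lower with chidamide. Of the G1/S genes, 28 of 30 listed were tested, and 28 fell in Raji-4RH and 26 in Raji, with medians of -2.05 and -0.76 and no gene higher, against 31.6% and 28.5% of all genes lower. CDC45, a helicase subunit of the replication fork, fell by 3.33 in Raji-4RH, and MCM4, a subunit of the same helicase, by 2.95. The exceptions in Raji were CCNE2 and TK1 (-0.07; limma, adjusted p = 0.472). Of the 30 G2/M genes, 30 fell in Raji-4RH and 25 in Raji, with medians of -1.24 and -0.46. CCNA2 (cyclin A) fell by 2.26 and UBE2C, which drives cyclin destruction, by 2.24 in Raji-4RH. The interaction was negative and called for 28 of the 28 G1/S genes and 26 of the 30 G2/M genes, against 21.7% of all genes, and the medians of the interaction were -1.23 and -0.88. With DMSO, 18 G1/S genes were higher and 3 lower in Raji-4RH than in Raji, whereas 6 G2/M genes were higher and 14 lower, against 41.2% of all genes higher and 32.4% lower. With chidamide, 27 of 28 G1/S and 28 of 30 G2/M genes were lower in Raji-4RH, against 35.0% of all genes. These lists were not tested as sets.

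**Figure D5:**
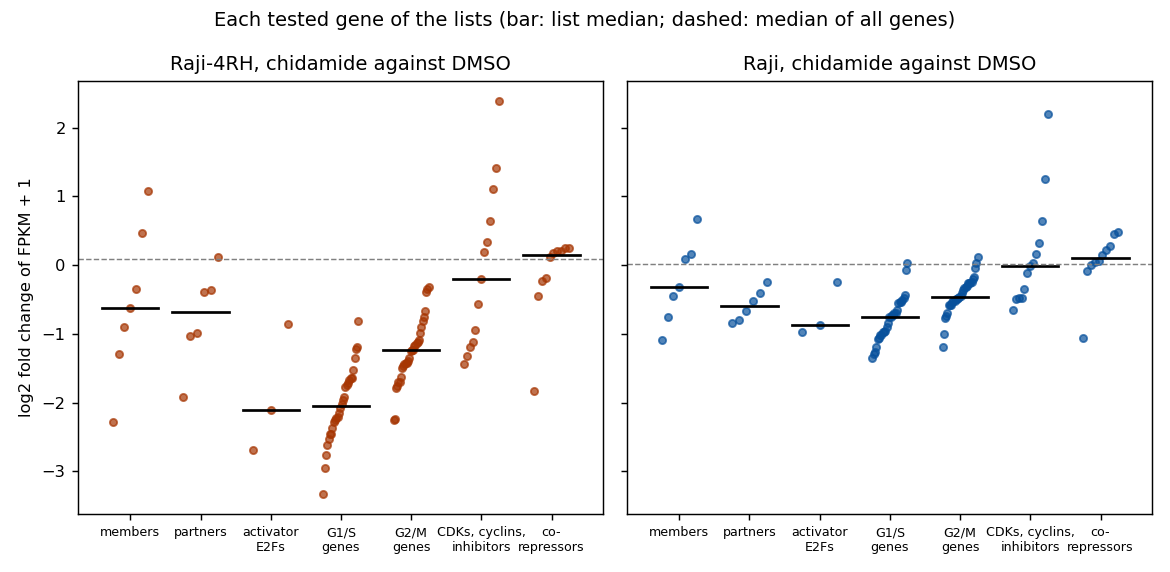
Log2 fold change of FPKM + 1 with chidamide against DMSO (vertical axis) for every tested gene of each list, in Raji-4RH on the left and Raji on the right; black bars are list medians and the dashed line is the median of all genes. All G1/S and G2/M points lie below 0 in Raji-4RH, with medians of -2.05 and -1.24, and the kinase and inhibitor list spreads on both sides of 0.

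FPKM is given per length, so levels of different genes were ordered, as a description that rests on the lengths used. For RBL1 and LIN9 the length used is that of the joined exons of GENCODE v29. For RB1 it is 6169 bases, against 6452 bases of joined exons. Which transcripts were expressed was not tested. The order of genes with close means, such as RBL1 and LIN9 in Raji-4RH DMSO, may therefore depend on these lengths. In Raji DMSO the order was MYBL2 (192 FPKM), MYBL1 (32.2), RBL2 (7.96), RB1 (7.91), RBL1 (6.19), LIN9 (4.22) and LIN54 (3.57), and the RBL2 and RB1 libraries overlapped. With chidamide in Raji RB1 followed MYBL1 with a mean of 13.2 FPKM, and LIN9 (3.17) last behind LIN54 (3.85). In Raji-4RH DMSO, RBL1 (8.17) and LIN9 (7.81) followed MYBL2, and the libraries of RB1 (5.65) and MYBL1 (5.49) overlapped. In Raji-4RH chidamide, RB1 (13.03) followed MYBL2 (38.6), and MYBL1 (4.08) overlapped RBL1 (3.92).

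The genes whose log2 levels were most like each member over the 8 libraries were sought, as a description, among the 6613 or 6614 genes that averaged 5 FPKM or more. The 8 points share 4 groups of 2, so a high Pearson r mostly says that group means are ordered alike. For LIN9 these were NCAPH (condensin), MCM8 and SPC25 (kinetochore), with r of 0.9964, 0.9961 and 0.9959. MYBL2 was followed by SLC43A3, USP36 and RAD18, at 0.9990 to 0.9980. RB1 was most like IFI6, IGF2R and RAPGEF2, with r of 0.9967 to 0.9935, and RBL1 most like RBMX, MYB and NET1, at 0.9961 to 0.9950. MYBL1 was most like ZNF106, OTUD6B and DAG1, at 0.9981 to 0.9961. RBL2 had PIH1D1, RAB1A and MPI, at 0.9884 to 0.9866, and LIN54 had STK40, CCDC167 and SFSWAP, at 0.9894 to 0.9722.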

How the data were processed

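The authors deposited 1 table of FPKM values for 8 libraries of mRNA (NEBNext Ultra kit, Illumina HiSeq X), together with gene lengths. The submitters' processing notes name HISAT2 2.0.5, SAMtools 1.7, HTSeq 0.9.1, DESeq2 1.22.2 and the builds hg38 and GRCh38. The annotation is not given in the sources used here. Reads were recovered from FPKM, length and library total, and 100% of non-zero values were whole within 0.01. Values stand up to 14 rows below their labels, so values were moved to the labels by a map made earlier and the FPKM was rescaled to the label's length, which placed 90.7% to 93.2% of each library's reads. Around each of the 13 placed members and partners, the level followed the number of GENCODE v29 transcripts best at the map's shift (LIN9, shift of 7 rows: r = 0.500, next best 0.158). The match was less clear for RB1 (shift of 1 row: r = 0.358, next best 0.208), and r was lowest for FOXM1 (0.278, next best 0.078).

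Genes reaching 1 FPKM in 2 or more libraries entered the test by limma 3.58.1 (R 4.3.3; lmFit and trended eBayes), applied to log2(FPKM + 1) values of the 8 libraries together, with Benjamini-Hochberg adjustment over 10710 genes. The fit was checked on simulated data. Alternatives were quantile normalization, median-centred libraries, no filter, a mean filter, a pseudocount of 0.1, no trend, voom on the recovered reads, fits on the compared libraries, a replicate block, leaving out each library, the rows as deposited and the labels above the first shift. Members, lists and motif letters were chosen with earlier results of these data known. Genes named with values are the members and the lists, with up to 3 most alike genes per member, and the examples from the target lists were chosen after their values were seen. A gene of the marker lists is not reported here.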

Additional observations from a re-analysis of the deposited data

Results flagged for a closer look

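The effect of chidamide differed between the lines by the interaction term of limma (Raji-4RH effect minus Raji effect, log2 scale, adjusted p under 0.05) for 6 of the 7 measured members. Of all genes tested, 48.8% were called in the same way. The member values were 0.41 for RB1, -0.45 for RBL1, -0.97 for LIN9, -0.72 for LIN54, 0.40 for MYBL1 and -1.19 for MYBL2. With quantile normalization the MYBL1 value was 0.04 and was not called (adjusted p = 0.778).

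Of the 6 partners tested, RBBP4 (-0.32), TFDP2 (0.65) and FOXM1 (-1.12) differed in the same test, against 48.8% of all genes. E2F5 was not called (-0.14), but was called with quantile normalization (-0.37; limma, adjusted p = 0.00539). RBBP4 and FOXM1 fell in both lines, and TFDP2 passed the threshold in Raji, where it fell, and not in Raji-4RH.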

How the results depend on the processing

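Over the 7 members, 604 of 623 alternative values kept their direction and their side of the threshold. Of the others, 9 reversed, 6 passed the threshold newly and 4 no longer passed. Over the 6 partners the numbers were 499 of 539, 19, 12 and 9. Many of these alternatives could not move a log2 value. They are the replicate block, no trend, no filter, the mean filter, the compared libraries alone, the labels above the first shift, and a left-out library outside the comparison. There only the side of the threshold could change, so a kept direction is no check. Restricting the fit to labels above the first shift, which leaves fewer genes, gave 3326, 2702, 2178, 3258 and 3463 genes called (chidamide in Raji-4RH, chidamide in Raji, interaction, lines in DMSO, lines with chidamide) and 3, 2, 2, 2 and 2 members. Of the members, only RBL1, RBL2 and MYBL2 entered that fit. Their 15 values all kept their side of the threshold, and their direction could not change in that fit. With the rows as deposited, where a shifted label holds the value of another row, 3, 3, 2, 3 and 3 members were called. Of the members, only RB1, RBL1, RBL2 and MYBL2 passed the filter in that fit. There the RB1 change with chidamide in Raji-4RH was 0.19 and was not called (limma, adjusted p = 0.0714). The RB1 interaction was -0.083 and its line differences 0.59 (DMSO) and 0.51 (chidamide). RBBP4 gave 1.46 (interaction), 0.025 (Raji) and 1.48 (Raji-4RH), and E2F5 gave 0.10, 0.26 and 0.36 in the same order. TFDP1 gave 0.81 (interaction), -0.30 (lines in DMSO) and 0.65 (Raji-4RH).

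With quantile normalization LIN54 turned to -0.061 (Raji chidamide) and -0.0084 (lines in DMSO), the RB1 difference with chidamide to 0.032, and the interactions of DYRK1A and TFDP1 to -0.11 and 0.041. The TFDP2 difference with chidamide turned to -0.011 there and to -0.057 with median-centred libraries, which also turned RBBP4 to -0.076 and the DYRK1A interaction to -0.0036. In the report none of the differences reversed by these scalings passed the threshold, and the cause was not tested. Leaving out 1 library each, uncalled differences near 0 ranged from -0.0503 to 0.0215 (MYBL2, DMSO), -0.0961 to 0.0656 (RB1, chidamide), -0.0227 to 0.0859 (DYRK1A, interaction), -0.0144 to 0.0212 (RBBP4, chidamide) and -0.0082 to 0.0536 (TFDP2, chidamide). The members called were then 7 to 7, 5 to 5, 6 to 7, 5 to 5 and 4 to 5 in the order given above. Where a library left out leaves 1 in a group, that library is assumed to vary like the other groups.

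Replicate numbers did not pair the libraries: same-numbered deviations correlated from -0.279 to 0.166 between groups. With the replicate block the genes called were 7886, 6183, 4915, 7748 and 8397, against 8022, 6421, 5231, 7882 and 8495 without it. The members called stayed 7, 5, 6, 5 and 5, and the block changed no member call. Among the partners, the call of the TFDP1 difference with chidamide (0.13) was lost (limma, adjusted p = 0.0568). That call was also lost with median-centred libraries (0.054; limma, adjusted p = 0.349) and when only the compared libraries were fitted (limma, adjusted p = 0.0876). Leaving out 1 library each, the difference ranged from 0.1219 to 0.1458. The call was lost without either Raji chidamide library and without either Raji-4RH DMSO library. FPKM leaves the sampling error of low genes implicit, and 2 libraries per group limit the error of every value.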
